A study of Oryza sativa with 12 samples.

Results

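The 6 arrays of droughted rice leaves fall into 2 sets by the prefix of their array labels. In the leaves of set B, 3 of the 4 dehydrins tested had more transcript than in those of set A. But 2 of the 3 were tested only because of their set B values, and 1.11% of all probe sets tested were higher in set B past the test. The count is thus no measure of the family. The 6 arrays are all the drought arrays among the 12 of the series. Set B holds 1 osnadk1 array (drought replicate 3) and 2 WT arrays (drought replicates 2 and 3). Set A holds 2 osnadk1 arrays (drought replicates 1 and 2) and 1 WT array (drought replicate 1). The same prefixes divide the 6 arrays of normal growth in the same numbers. The prefix was read as a set and nothing more, since the sources used here do not say what it stands for. Each array was placed in its set by its label alone, though the contrast was chosen with earlier results of these data known.

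The leaves sampled were the youngest to have fully expanded, on plants of Dongjin, a japonica cultivar. The osnadk1 plants carry a T-DNA in an intron of OsNADK1, an NAD kinase gene, and stand for a single insertion line, whereas WT plants lack it. Each pot held both genotypes side by side. Drought samples were taken on day 15 without water, at 8.5% soil moisture, and normal-growth samples on day 0, at 47.3%. These figures are given per treatment and not per array, so the water status behind each set was not measured here. By the labels the replicates are biological and the arrays of WT are re-analysed ones, with nothing on the plants or pots behind an array. The p-values therefore measure the spread between arrays, which may be technical. The values are log2 MAS5 signals, a summary of the probe brightness of each probe set, and differences are given as set B minus set A in log2 units.

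Rice leaves that lose water accumulate abscisic acid (ABA). Receptors that bind ABA hold back clade A protein phosphatases 2C (PP2C), which frees SnRK2 kinases (SAPK in rice) to activate bZIP transcription factors. These switch on genes for dehydrins and other late embryogenesis abundant (LEA) proteins, which are thought to shield membranes and proteins in dry cells, and for enzymes that make protective sugars. The PP2C genes are themselves induced by ABA, so their transcripts rise as the pathway is engaged.

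The arrays matched their labels. OsNADK1 lay between 4.39 and 5.65 on the osnadk1 arrays under drought and between 9.43 and 9.53 on the WT arrays. Over all probe sets tested, the drought arrays correlated at 0.942 to 0.963 within a set (6 pairs) and at 0.924 to 0.947 between the sets (9 pairs). On the first principal component of the 6 arrays, which held 35.4% of the variance, the set B arrays lay at 33.1 (osnadk1), 51.9 and 82.7 (WT). The set A arrays lay at -69.7 and -84.1 (osnadk1) and -14.0 (WT), so the WT array of set A was the one nearest to set B. The 3' to 5' difference of the actin control, a sign of how complete the labelled RNA was, was 3.87, 3.92 and 4.79 in set B, above the 3.46, 3.37 and 3.32 of set A. Those of the other 3 control transcripts overlapped between the sets. The part of the actin difference in the results below was not tested. Of 6 leaf markers, RBCS-A was under the array median on all 6 drought arrays, at 4.47 to 4.91 in set B and 4.17 to 5.11 in set A. The other 5 were at 12.76 or above on each of them, and the mean of the 6 was 12.6 to 12.9 in set B and 12.4 to 12.8 in set A. Of the root markers 4 of 8 were tested and of the seed markers 4 of 10, with means of 6.58 to 7.5 in set B against 6.47 to 7.28 in set A and of 8.47 to 8.77 against 8.54 to 8.76. None of the pollen and anther (4) or meristem (5) markers reached the level needed for testing. No tissue marker passed the test between the sets under drought, and the largest difference among those of other tissues was that of Lsi1, a root silicon channel (1.16, adjusted p = 0.0716).

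Of the dehydrins, 3 were higher in set B under drought, and 2 of these were tested only because of their set B values. RAB21, a dehydrin long known for its induction by ABA, was at 9.82 (osnadk1), 11.77 and 13.03 (WT) in set B, against 1.98 and 2.2 (osnadk1) and 6.85 (WT) in set A. In bulk leaves a lower share of the cells that express a gene and less RNA per cell cannot be told apart. Every set B array lay above every set A array, and within set A the WT array stood well over the osnadk1 arrays, which were below the median of their own arrays. The fitted difference, with genotype taken into account, was 6.64 ± 0.74 (± standard error, adjusted p = 0.00172). This and all other adjusted p-values come from limma, a linear model fitted to all probe sets. RAB21 reached the level for testing only with the set B drought arrays, so its p is conditioned on the group where it is high. With no filter on low values its adjusted p was 0.00125. The osnadk1 arrays of set A hold only a bound, so no fold is given, and the difference was 5.55 between the WT arrays, all of which were above their medians. Under normal growth RAB21 was at or under 2.03 on all 6 arrays, with a set difference of -0.07. A brighter probe set of RAB21, which stands for it in the list and is of a kind that can also pick up related transcripts, was at 9.5, 10.56 and 11.93 in set B and 5.52, 4.75 and 6.78 in set A (4.41 ± 0.80, adjusted p = 0.0256). It too was tested only through set B, and had an adjusted p of 0.0262 with no filter.

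RAB16B, a dehydrin of the same cluster as RAB21, was at 7.90 (osnadk1), 9.79 and 10.96 (WT) in set B, against 3.41 and 2.64 (osnadk1) and 5.03 (WT) in set A. All 3 set A arrays lay under their array medians, as did all 6 arrays of normal growth, so RAB16B came to be tested through its set B values alone. Its difference was 5.11 ± 0.89 (adjusted p = 0.0218, and 0.0121 with no filter), and the set difference under normal growth was -1.17 (adjusted p = 0.389). Dhn1, a dehydrin with a high level in every leaf, was at 11.81, 12.50 and 13.36 in set B against 10.43, 10.39 and 10.99 in set A. Its sets did not overlap, and the difference was 1.67 ± 0.23 (limma, adjusted p = 0.00558), whereas under normal growth it was -0.56 (adjusted p = 0.103). RAB16C did not pass, with overlapping sets and a difference of 0.61 (adjusted p = 0.826), beside 3.53 under normal growth (adjusted p = 0.0153). Of 6 dehydrin genes in the list 4 were tested, 3 of them were higher in set B past the test, 0 lower, and the median difference was 3.04. Over all 15401 genes tested the median was 0.01. Because 2 of the 4 reached the level for testing only with the set B drought arrays, this tally and median are a description and not a measure of the family.

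LEA19, a LEA protein gene given as a marker of this contrast together with RAB21, was at 7.28 (osnadk1), 8.32 and 9.64 (WT) in set B, against 1.60 and 2.52 (osnadk1) and 6.30 (WT) in set A. The sets did not overlap, but the spread within set A was wide and the difference of 3.95 ± 1.03 did not pass (limma, adjusted p = 0.102). EM, a LEA protein gene best known from seeds, was at 6.56, 8.12 and 9.18 against 5.31, 2.53 and 3.31 (3.99 ± 0.86, adjusted p = 0.0552). It was the osnadk1 array of set B and 1 osnadk1 array of set A that came closest to each other. PM19L1, an ABA-induced membrane protein gene, differed by 2.43 (adjusted p = 0.329), with sets that did not overlap. Of the other LEA proteins 0 of 3 passed the test. The set B arrays were on top in each, as in 11.4% of all probe sets tested, but 2 of the 3 were tested only through the set B drought arrays, so this count shows nothing about the group.

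**Figure D1:**
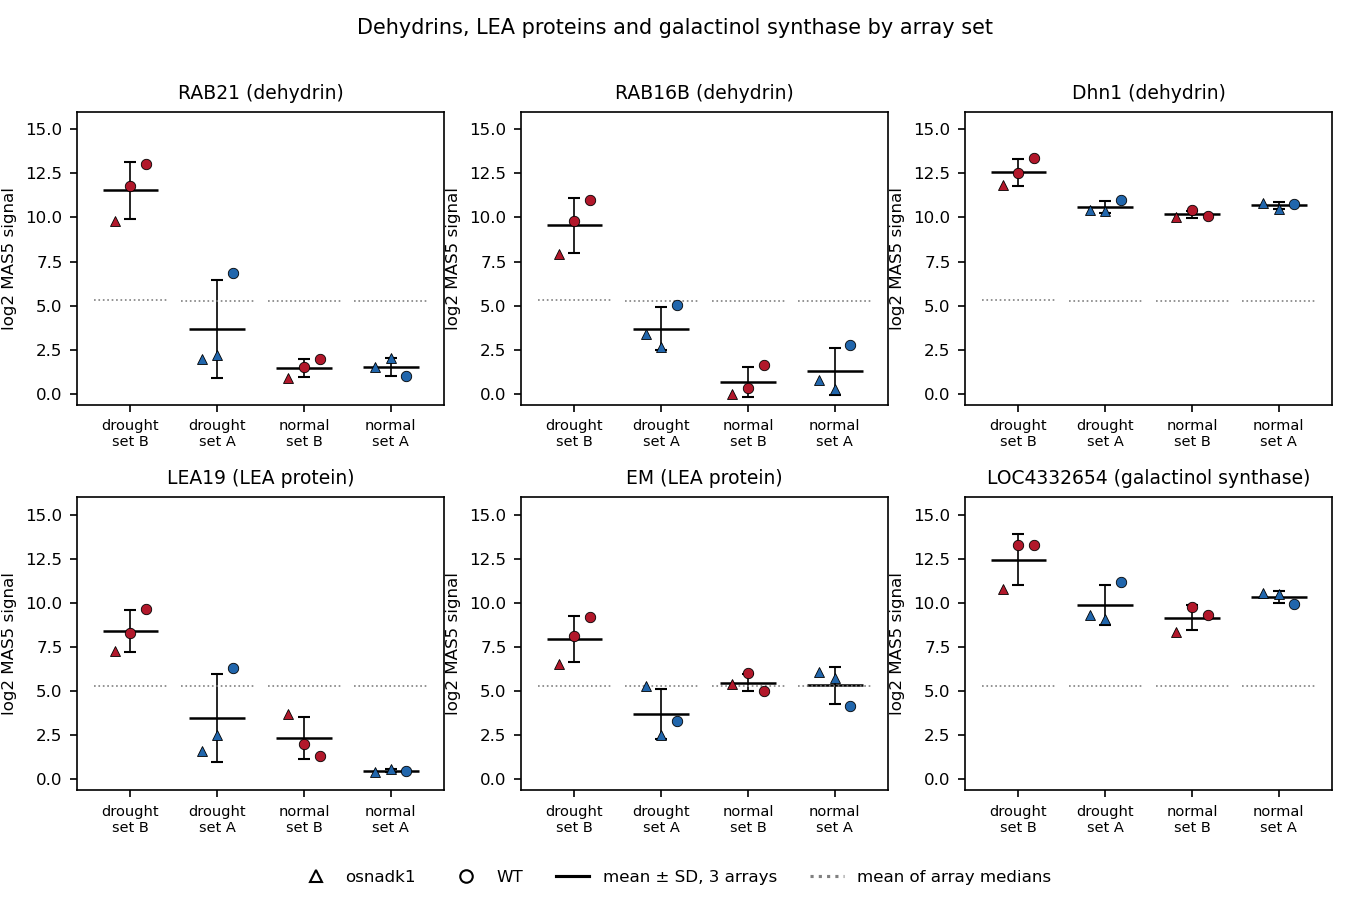
Log2 MAS5 signal on each array for 3 dehydrins, 2 LEA protein genes and a galactinol synthase gene, by treatment and array set (3 arrays each), with triangles for osnadk1, circles for WT, bars for mean ± SD and dotted lines for the mean of the array medians. For RAB21 the set B drought arrays sit between 9.82 and 13.03 and the set A drought arrays between 1.98 and 6.85.

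Across the array such differences were few. Of 32110 probe sets tested, 518 passed an adjusted p of 0.05 in limma, or 1.61%. Of these, 355 were higher in set B (1.11%) and 163 lower (0.508%). Without adjustment 4419 had a p under 0.05, and 7572 (23.6%) had sets that did not overlap, 3675 with set B on top (11.4%) and 3897 with set B beneath (12.1%). With 1 probe set for each gene, as in the gene lists below, 114 of 15401 genes were higher past the test and 38 lower. Set B was on top without overlap in 2070 of them and beneath in 1615. Leaving out an array lowered the count of 518 probe sets to between 101 (without osnadk1 drought replicate 3, the sole osnadk1 array of set B) and 422 (without WT drought replicate 2). It was 177 without WT drought replicate 1, the sole WT array of set A, 253 without WT drought replicate 3, and 276 and 307 without osnadk1 drought replicates 2 and 1. Of 35 calls among the 84 probe sets named in the text, 32 no longer passed without osnadk1 drought replicate 3, 25 without WT drought replicate 1, 24 without WT drought replicate 3, 23 and 14 without osnadk1 drought replicates 2 and 1, and 9 without WT drought replicate 2, while 0 changed sign. The first probe set of RAB21 held its call in each case but that of osnadk1 drought replicate 3, where its difference was 5.55 (adjusted p = 0.108), whereas its brighter one held it only without WT drought replicate 2 (4.70, adjusted p = 0.0434). LOC4336689, LOC4343609 and LOC4350534 were the 3 that passed without osnadk1 drought replicate 3.

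Many of these differences were also found between the normal-growth arrays of the sets. Those are other samples that share only the label prefix, and the set A ones stood apart from the rest, as given below. Whether the droughted plants differed before drought was not tested. Under normal growth 7912 probe sets differed between the sets (24.6%), 4946 higher in set B (15.4%) and 2966 lower (9.24%). Of the 355 higher under drought, 233 (65.6%) were also higher in set B under normal growth, 30 were lower there and 92 did not pass. Of the 163 lower under drought, 81 (49.7%) were also lower under normal growth, 20 were higher and 62 did not pass. The difference between the conditions itself, the set by treatment interaction, passed for 4252 probe sets (13.2%). In 1729 (5.38%) the drought value was the higher one and in 2523 (7.86%) the lower one, and among them were 121 of the 355 and 65 of the 163. A set difference seen under drought alone can therefore be told from one also seen under normal growth only gene by gene. The value under normal growth is given beside the genes that passed.

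**Figure D2:**
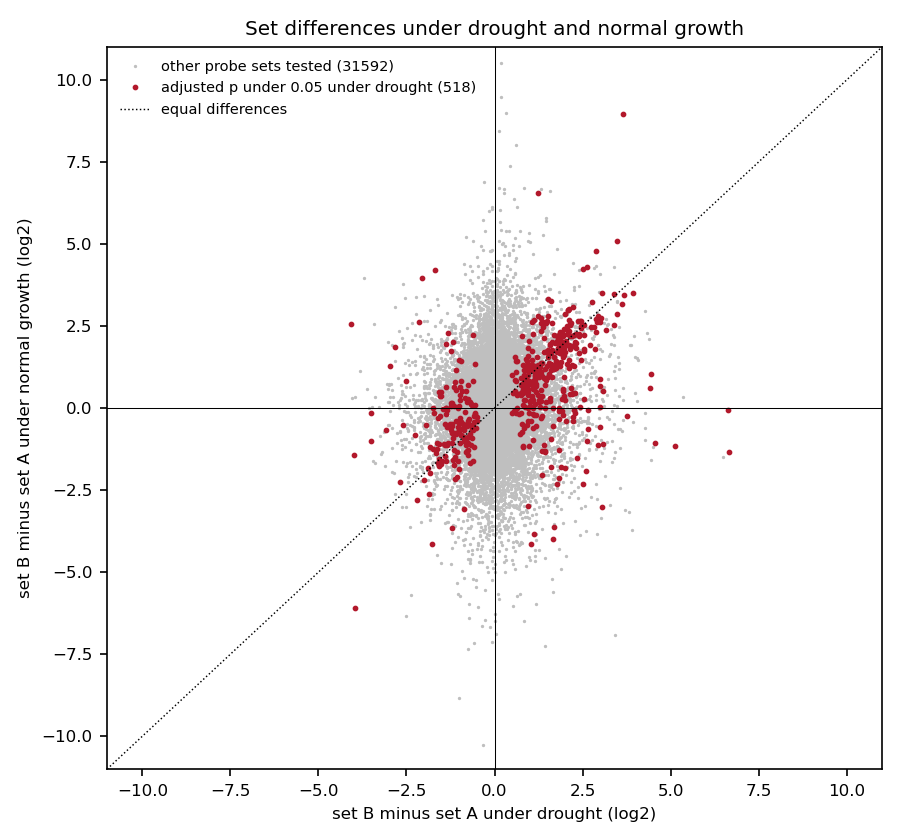
Set B minus set A under drought (x axis, log2) against set B minus set A under normal growth (y axis, log2) for the 32110 probe sets tested, with the 518 that passed under drought in red and a dotted line where the differences are equal. Most red points lie to the upper right or lower left of the centre, and RAB21 lies far right at a height near 0.

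The drought response of each set, drought minus normal growth within that set, was added after seeing the data. In set B 424 probe sets passed (1.32%), 287 higher (0.894%) and 137 lower (0.427%). In set A 7893 passed (24.6%), 5047 higher (15.7%) and 2846 lower (8.86%). By count, then, the leaves of set A were farther from their own normal-growth leaves. By the markers they were nearer, since RAB21 was 9.46 higher under drought in set B (adjusted p = 0.00173) and 2.76 higher in set A (adjusted p = 0.0184). LEA19 was 5.40 higher in set B (adjusted p = 0.0354) and 3.65 higher in set A (adjusted p = 0.0232), and its interaction did not pass (1.76, adjusted p = 0.501; all from limma). By RAB21 and several of the genes below the rise under drought was thus larger in set B, but not by the number of genes that moved. RAB21 and LEA19 were given with this contrast and were tested only through the set B drought arrays. Naming the sets milder and stronger by them would repeat the choice of markers. The brighter probe set of RAB21 was 6.56 higher under drought in set B and 2.75 higher in set A. Its interaction did not pass (3.81, adjusted p = 0.0529 in limma). The set A arrays of normal growth stood apart from the other 9 arrays, at -121.4 to -140.4 on the first principal component of all 12, with the others at 26.5 to 66.3. Every response within set A rests on them.

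Of the clade A PP2C genes, whose phosphatases ABA inactivates and whose transcripts it induces, 2 of 7 rose in set B. PP2C68 was at 9.51 (osnadk1), 10.35 and 10.37 (WT) in set B against 8.46 and 8.28 (osnadk1) and 8.61 (WT) in set A, without overlap (1.44 ± 0.23, adjusted p = 0.0140). PP2C09 was at 11.33, 11.66 and 12.12 against 10.38, 10.03 and 10.77, again without overlap (1.12 ± 0.21, adjusted p = 0.0302). The difference of PP2C09 was 1.12 in each genotype. Of the 7 tested, 7 lay above 0 (as did 7875 of all 15401 genes), and the median was 0.93. In 5 of 7 set B was on top without overlap (11.4% of all probe sets), and 2 passed (as did 1.11% of all probe sets with set B higher). Those that did not pass ranged from 0.22 (PP2C53) to 1.06 (PP2C51). Under normal growth PP2C68 had the opposite sign (-1.31, adjusted p = 0.00232) and PP2C09 did not differ past the test (-0.21).

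Other steps of the ABA pathway gave smaller differences. The 10 SAPK kinases tested had a median of 0.10 and 0 passed. SAPK4 was at 10.95, 11.38 and 11.77 in set B against 10.60, 10.48 and 10.60 in set A (0.70, adjusted p = 0.158). BZIP23, a bZIP factor that activates ABA-responsive genes in rice, was at 11.17, 11.78 and 12.28 against 10.95, 10.44 and 10.83. Its sets did not overlap, but the difference of 0.84 ± 0.21 did not pass (limma, adjusted p = 0.0874), and under normal growth BZIP23 was lower in set B (-1.25, adjusted p = 0.00166). Of the genes for ABA synthesis and breakdown 3 were tested and 0 passed. The receptor tested, PYL11, was at -0.14.

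HOX22 and HOX24, homeodomain-leucine zipper factors that ABA and water deficit induce in rice, were next among the regulators. HOX22 was at 9.06 (osnadk1), 10.31 and 10.42 (WT) in set B, against 8.47 and 7.69 (osnadk1) and 9.12 (WT) in set A. Here the sets overlapped, by the osnadk1 array of set B and the WT array of set A, and the difference of 1.11 ± 0.23 passed once genotype was fitted (limma, adjusted p = 0.0429). HOX24 was at 7.72, 8.88 and 11.07 against 5.83, 4.82 and 6.52, without overlap (2.92 ± 0.67, adjusted p = 0.0696). Under normal growth both were much lower in set B, with set differences of -3.85 for HOX22 (adjusted p = 1.76e-06) and -3.85 for HOX24 (adjusted p = 0.00214). On the set A drought arrays both thus lay below the set A arrays of normal growth (10.96 to 11.75 and 7.61 to 8.31). Of the 26 HD-Zip genes tested 1 passed (as did 1.11% of all probe sets with set B higher), and their median was 0.28.

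**Figure D3:**
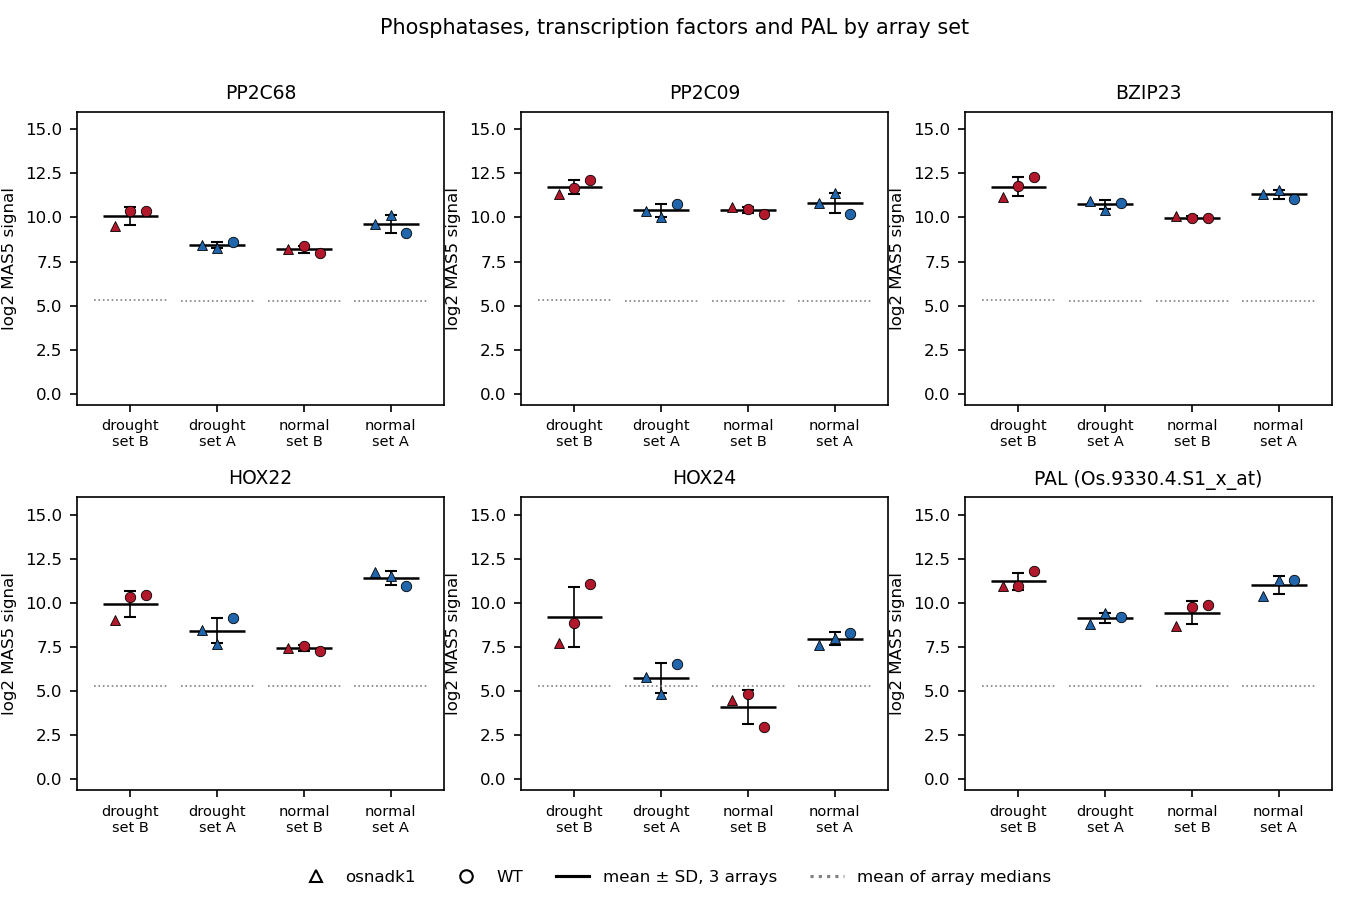
Log2 MAS5 signal on each array for 2 clade A PP2C genes, 3 transcription factor genes and a PAL probe set, by treatment and array set (3 arrays each), drawn as for the dehydrins. Under drought the set B arrays of PP2C68 sit between 9.51 and 10.37, above the set A arrays at 8.28 to 8.61, whereas under normal growth set A is the higher one.

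Of the enzymes for raffinose-type sugars, osmoprotectants made from galactinol, 1 of 2 was higher in set B past the test (as were 1.11% of all probe sets). LOC4332654, annotated as a galactinol synthase, was at 10.77 (osnadk1), 13.29 and 13.26 (WT) in set B, against 9.34 and 9.10 (osnadk1) and 11.17 (WT) in set A. As with HOX22, the osnadk1 array of set B and the WT array of set A overlapped. The difference was 1.83 ± 0.32 (limma, adjusted p = 0.0218), 1.55 between osnadk1 arrays and 2.11 between WT arrays, and under normal growth it was -1.27 (adjusted p = 0.0150). The raffinose synthase gene RFS was at 10.41, 10.78 and 11.88 against 9.51, 10.35 and 8.92 (1.45, adjusted p = 0.171). Of the proline genes 0 of 4 passed, with a median of -0.01. P5CS1, the first enzyme of proline synthesis, was at 11.53, 11.80 and 12.17 against 11.29, 11.08 and 11.38 (0.48, adjusted p = 0.228). The 6 trehalose phosphatases tested had a median of 0.33 and 0 passed.

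LAC10, PAL and UGD4 were picked out after their values were seen and stand for no list. LAC10, a laccase gene of a family that polymerises lignin, was at 8.76 (osnadk1), 10.32 and 11.43 (WT) in set B against 6.09 and 5.09 (osnadk1) and 8.06 (WT) in set A (2.99 ± 0.52, adjusted p = 0.0222). Its set difference under normal growth was 0.04, and 1 of its set A arrays was under its array median. The phenylalanine ammonia-lyase gene PAL, the entry enzyme of phenylpropanoid synthesis, has 5 probe sets tested. On all 5 the set B arrays lay above those of set A, with differences of 0.50 to 1.99, and 3 passed. The one with the largest difference was at 10.93, 10.94 and 11.79 against 8.82, 9.43 and 9.18 (limma, adjusted p = 0.0121). PAL probe sets can share sequence with the other copies of this family, so they are not 5 separate measurements. Under normal growth they were lower in set B, by 1.80 to 2.95. UGD4, a UDP-glucose dehydrogenase gene that feeds wall polysaccharides, was at 10.23, 11.19 and 11.93 against 9.31, 9.41 and 9.76 (1.33 ± 0.27, adjusted p = 0.0399), and differed by 0.21 under normal growth. LOC4345187, annotated as an O-methyltransferase, was at 11.29, 10.68 and 11.19 against 4.82, 5.51 and 7.97 (4.55 ± 0.62, adjusted p = 0.00572). One of its set A arrays was under its array median, so the size is uncertain. Under normal growth it differed by -1.05 (adjusted p = 0.263).

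The cellulose synthases of the secondary wall, CESA4, CESA7 and CESA9, differed by 2.85, 2.93 and 3.03, more than the other 6 of the family (-0.15 to 0.95). CESA7 was at 8.41 (osnadk1), 10.42 and 11.14 (WT) in set B against 5.71 and 5.07 (osnadk1) and 7.95 (WT) in set A. CESA9 was at 7.39, 8.57 and 9.48 against 4.62, 2.52 and 6.79. Neither passed the test (limma, adjusted p = 0.0897 and 0.102), and again the WT array of set A stood above its osnadk1 arrays. Of the 9 cellulose synthases 0 passed and 7 had set B on top without overlap (11.4% of all probe sets tested), beside 3 that were higher in set B under normal growth. TUB1, a beta-tubulin gene, was at 10.42, 11.57 and 12.51 against 7.24, 7.43 and 10.10 (2.51, adjusted p = 0.122), and 0 of 10 tubulins passed. Under normal growth TUB1 differed by 1.25, not past the test, and 5 of the 10 tubulins were higher in set B past it. The tubulin median was 0.84 under normal growth and 0.33 under drought.

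Of the auxin-response genes a few were higher in set B by small steps. IAA24 was at 10.90, 11.07 and 11.31 in set B against 10.03, 10.04 and 10.57 in set A (0.74 ± 0.12, adjusted p = 0.0177), and IAA17 at 14.48, 14.51 and 14.61 against 14.07, 13.87 and 13.94 (0.57 ± 0.10, adjusted p = 0.0212). Both encode Aux/IAA repressors, whose genes auxin induces and whose proteins it has destroyed. Of 25 Aux/IAA, SAUR and GH3 genes tested, 23 lay above 0 (as did 7875 of all 15401 genes), and the median was 0.60. Of the 25, 14 had set B on top without overlap (11.4% of all probe sets), and 2 passed (as did 1.11% of all probe sets with set B higher). Under normal growth IAA24 had no set difference past the test (-0.15), while IAA17 was higher in set B by 0.52 (adjusted p = 0.00347). In the list as a whole 8 were higher in set B and 1 lower under normal growth (15.4% and 9.24% of all probe sets), with a median of 0.40.

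Among water channels, PIP2-4, a plasma membrane aquaporin, was the gene that was lower in set B past the test. It was at 1.73 (osnadk1), 2.75 and 4.52 (WT) in set B against 5.21 and 6.43 (osnadk1) and 7.48 (WT) in set A, and all 3 set B arrays were under their array medians (-3.96 ± 0.70, adjusted p = 0.0226). The set difference under normal growth was larger still, -6.08 (adjusted p = 0.000154), so PIP2-4 separated the sets in both conditions. PIP2-6 was at 11.68, 11.84 and 12.23 against 10.14, 9.53 and 10.70 (1.59 ± 0.38, adjusted p = 0.0825). Of 22 aquaporins tested 1 passed (as did 0.508% of all probe sets with set B lower), and the median was 0.06. Sugar transporters of the SWEET family had a median of 0.69, with 9 of 9 above 0 (as were 7875 of all 15401 genes) and 0 passed. Of the 9, 1 (SWEET15) was tested only through the set B drought arrays, so this tally and median are a description and not a measure of the family. SWEET16, a vacuolar sugar carrier, was at 7.65, 7.89 and 9.32 against 6.24, 6.24 and 6.24 (1.89, adjusted p = 0.0857).

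The highest and lowest genes without a role in the reference rounded out the contrast. LOC4331361 differed by 4.44 (adjusted p = 0.0345), LOC4327501 by 3.76 (adjusted p = 0.00658), LOC4347252 by 3.07 (adjusted p = 0.0469), LOC4343609 by 3.00 (adjusted p = 0.0477) and LOC4340441 by 2.99 (adjusted p = 0.0321). Under normal growth these 5 differed by 1.03, -0.25, 0.53, 0.66 and -0.57, in the same order, and none passed. Under drought 2 of the 3 set A arrays were under their array medians for LOC4331361 and for LOC4340441. For LOC4327501 and LOC4343609 it was 1 each. The sizes of these 4 are therefore uncertain. All 5 calls rest on few arrays. With an array left out the adjusted p in limma was 0.0851 to 0.361 for LOC4347252 and 0.0424 to 0.359 for LOC4331361. It was 0.0324 to 0.317 for LOC4340441 and 0.0127 to 0.157 for LOC4327501. LOC4343609 was 1.63 without WT drought replicate 1 (adjusted p = 0.412) and 4.37 without osnadk1 drought replicate 3 (adjusted p = 0.0478). The other probe set of LOC4343609 gave 1.95 (adjusted p = 0.205). With no filter on low values its adjusted p was 0.0546. LOC4327501 was at 9.81, 11.41 and 12.17 in set B against 4.87, 5.98 and 8.64 in set A, and differed by -0.25 under normal growth. LOC4336689 was at 9.83, 9.40 and 9.33 in set B against 6.03, 6.64 and 6.07 in set A (3.4 ± 0.2, adjusted p = 4.56e-05). Its difference under normal growth was 2.54 (adjusted p = 1.11e-05), so it separated the sets with or without drought. Of the 355 probe sets higher in set B, 154 have no single gene in the reference (43.4%), a share close to the 41.9% of all those tested.

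Among genes lower in set B, LOC4346841 was at 3.59, 6.11 and 5.44 in set B against 6.57, 7.76 and 8.12 in set A (-2.96 ± 0.50, adjusted p = 0.0177), with a difference of 1.29 under normal growth (adjusted p = 0.0887). LOC4338283, the acyltransferase gene AT5, was at 7.05, 9.20 and 7.81 against 10.01, 10.73 and 10.55 (-2.68, adjusted p = 0.0401), and was lower under normal growth too (-2.25, adjusted p = 0.0121). LOC4334717, the ammonium transporter gene AMT3-2, was at 7.99, 9.31 and 8.53 against 9.97, 9.73 and 9.94 (-1.44, adjusted p = 0.0148) and lower under normal growth as well (-1.11, adjusted p = 0.00616). LOC4326904 turned over between conditions. It was at 10.31, 10.45 and 10.28 in set B against 12.11, 11.90 and 11.29 in set A under drought (-1.31, adjusted p = 0.00701), and higher in set B by 2.29 under normal growth (adjusted p = 1.44e-05). The other 5 of the 10 lowest genes were LOC4331813 (-2.26), LOC4350534 (-1.64), LOC4338399 (-1.58), LOC4343503 (-1.56) and LOC4324469 (-1.39). Of these LOC4324469 had a difference of 0.00 under normal growth, and the others had values from -0.25 to -1.54. RPT1A, an ATPase subunit of the proteasome in a list made after values were seen, was at 9.15, 8.89 and 8.94 against 9.75, 10.06 and 9.64 (-0.74, adjusted p = 0.0209), and differed by -0.50 under normal growth (adjusted p = 0.0161). Of 19 proteasome genes tested it alone passed (as did 0.508% of all probe sets with set B lower). Set B was beneath without overlap in 7 of the 19 (12.1% of all probe sets).

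Probe sets of GLK2, a factor that drives chloroplast genes, disagreed. A pair of them were at 7.94, 7.47 and 7.91 and at 7.54, 7.65 and 7.59 in set B, against 5.85, 6.06 and 5.82 and 5.46, 5.50 and 6.04 in set A (1.93 and 1.82, adjusted p = 0.00166 and 0.0019). The brightest probe set, which stands for the gene in all counts here, was at 11.15, 11.04 and 10.90 against 10.85, 11.20 and 10.37 (0.36, adjusted p = 0.338), the remaining one differed by 0.44 (adjusted p = 0.534), and the pair differed by -0.22 and -0.32 under normal growth. GLK2 was chosen after its values were seen, and its level is taken as uncertain.

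Over the 476 genes tested in the 46 gene lists, 9 were higher in set B past the test and 2 lower. Beside them stand 114 and 38 of all 15401 genes, and 1.11% and 0.508% of all probe sets. At such shares most lists of a few genes hold no call, and 39 of the 46 held none. Those without a call include small heat shock proteins (16 genes, median 0.18), HSP70, HSP90 and HSP100 chaperones (7, -0.03), heat shock factors (20, -0.13), antioxidant enzymes (16, 0.03) and glutathione S-transferases (6, 0.07). They also include DREB and ERF (8, 0.15), NAC (7, 0.27) and WRKY factors (6, 0.09), jasmonate synthesis (13, 0.20), JAZ and TIFY repressors (16, 0.07), CDPK (16, 0.16), calmodulin-like sensors (22, 0.17), and CIPK and CBL genes (28, 0.24). Outside stress proper, gibberellin metabolism (7, 0.05), cytokinin response (9, -0.08), expansins (16, 0.44), sucrose synthases and invertases (8, 0.06), amylases (2, 0.24), PR proteins and chitinases (11, -0.23) and diterpenoid phytoalexin synthesis (13, -0.12) gave none either. A missing call does not show that the sets were alike, since with 3 arrays a side the test recovers only part of the true differences. HSP24.1, a small heat shock protein gene, was at 9.10, 10.75 and 10.63 in set B against 10.57, 11.06 and 11.05 in set A (-1.04 ± 0.34, adjusted p = 0.201). APX7, an ascorbate peroxidase gene, was at 10.60, 10.51 and 9.96 against 11.71, 11.98 and 11.26 (-1.13 ± 0.54, adjusted p = 0.389). DREB1G, an activator of cold and drought genes, was at 6.83, 10.30 and 6.20 against 6.01, 6.17 and 6.78, so that 1 WT array of set B stood alone (1.1, adjusted p = 0.667).

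The lists for leaf function and senescence held no call either. Photosystem and light-harvesting genes had a median of 0.22 (7 genes), Calvin cycle enzymes of 0.17 (6), chlorophyll breakdown of 0.24 (4) and autophagy of 0.08 (7). Chlorophyll synthesis had a median of -0.23 (12 genes, of which 1 lay above 0, as did 7875 of all 15401 genes). CHLH, a subunit of magnesium chelatase in chlorophyll synthesis, was at 11.41, 12.39 and 11.67 in set B against 12.01, 11.64 and 12.85 in set A (-0.61, adjusted p = 0.174). SGR, the stay-green gene of chlorophyll breakdown, was at 9.19, 9.93 and 10.48 against 9.08, 8.03 and 8.08 (1.38 ± 0.62, adjusted p = 0.364). Its sets did not overlap, and the osnadk1 array of set B lay close to the highest of set A. Ribosomal proteins (17, -0.08) and histones (6, -0.16) had medians near 0.

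**Figure D4:**
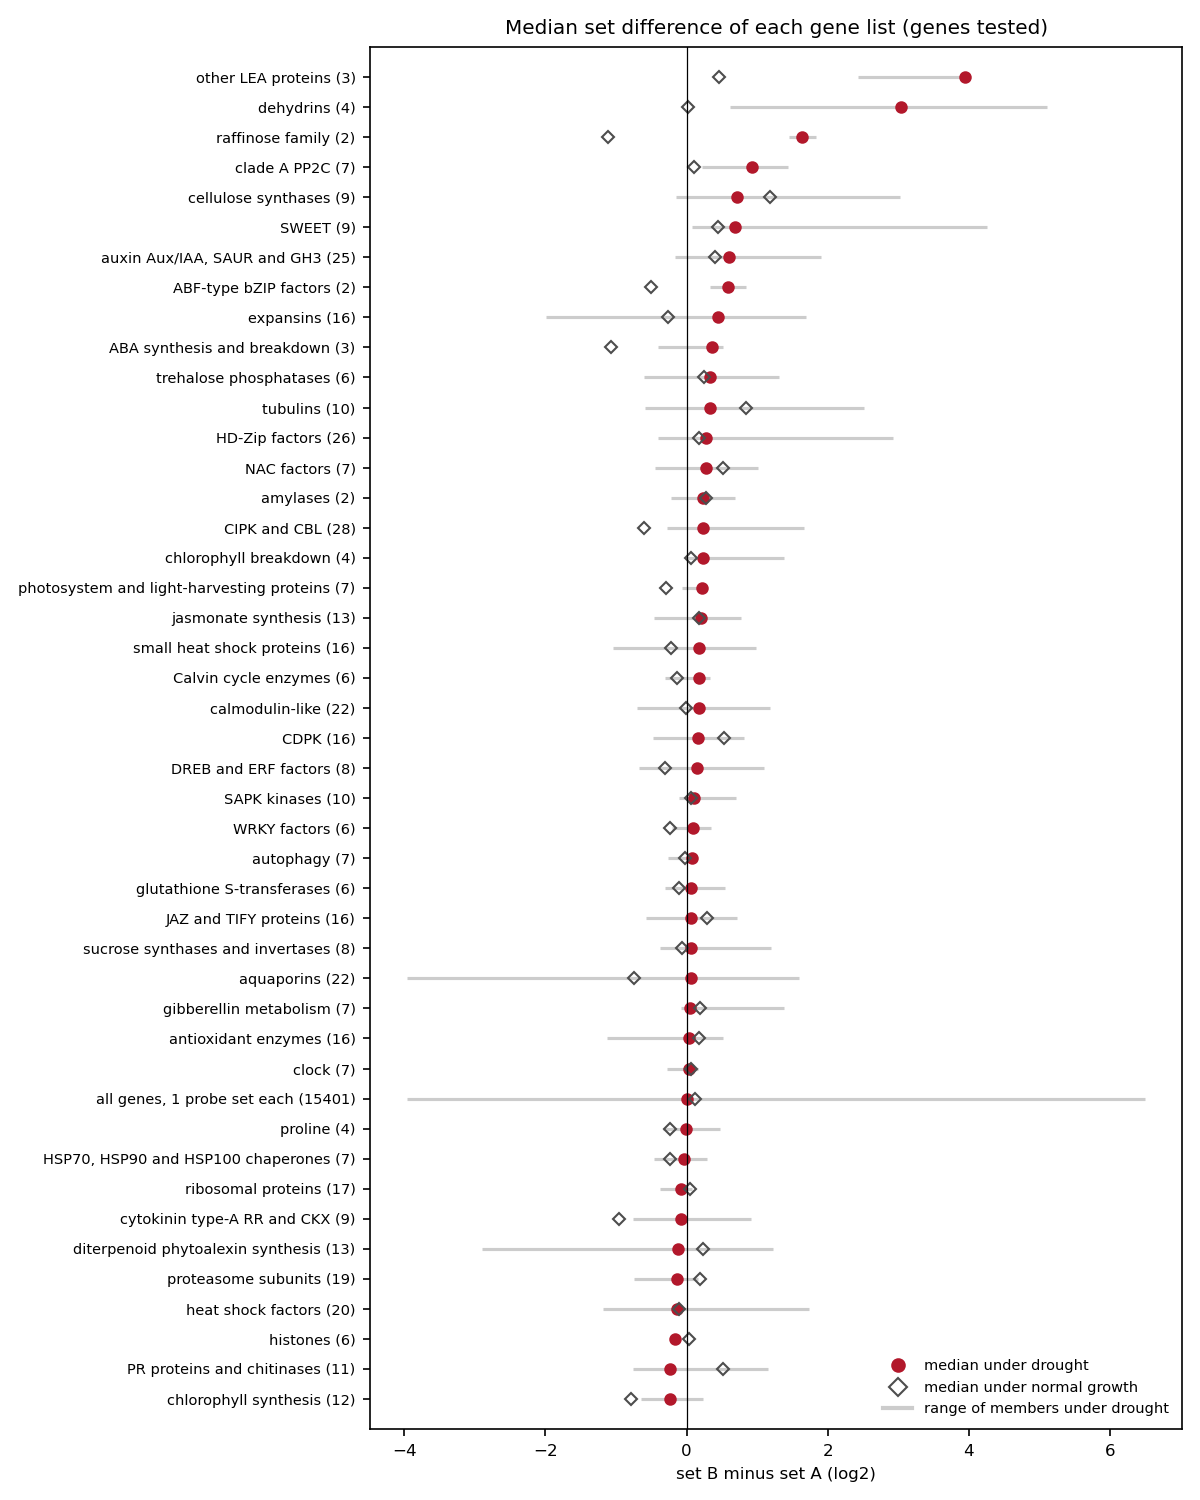
Median set B minus set A difference (log2) of each gene list with at least 2 genes tested, under drought (filled circles) and normal growth (open diamonds), with the range of the members under drought as grey lines and the number of genes tested in parentheses. The other LEA proteins, dehydrins and raffinose family have the highest medians at 3.95, 3.04 and 1.64, with 2 of 3, 2 of 4 and 0 of 2 genes tested only through the set B drought arrays, and the row of all 15401 genes lies at 0.01.

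Of 7 clock genes, 6 differed between the sets under normal growth, 3 in each direction, and 0 under drought, taking the brightest probe set of each. Of all probe sets 24.6% differed under normal growth and 1.61% under drought. CCA1, the morning gene of the plant clock, was at 8.04, 8.43 and 8.13 in set B against 8.32, 8.18 and 8.63 in set A under drought (-0.28, adjusted p = 0.764). Under normal growth it was at 7.31 to 8.53 in set B against 13.02 to 13.79 in set A (-5.54, adjusted p = 1.39e-06). PCL1, an evening gene, was at 14.85, 14.38 and 14.60 against 14.60, 14.56 and 14.50 under drought (0.13) and at 14.66 to 14.99 against 6.08 to 6.90 under normal growth (8.45, adjusted p = 1.10e-08). PRR1, the rice TOC1, differed by 0.16 under drought and by 3.04 under normal growth (limma, adjusted p = 2.95e-07). GI, PRR37, PRR95 and PRR73 differed by 0.12, -0.12, 0.03 and 0.01 under drought. A second probe set each of PRR37 and PRR73 did pass under drought, at 1.97 (adjusted p = 0.000185) and -0.76 (adjusted p = 0.00662), and had the same signs under normal growth (1.61 and -1.44), so the probe sets of these genes disagree. No source used here gives the hour of sampling.

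**Figure D5:**
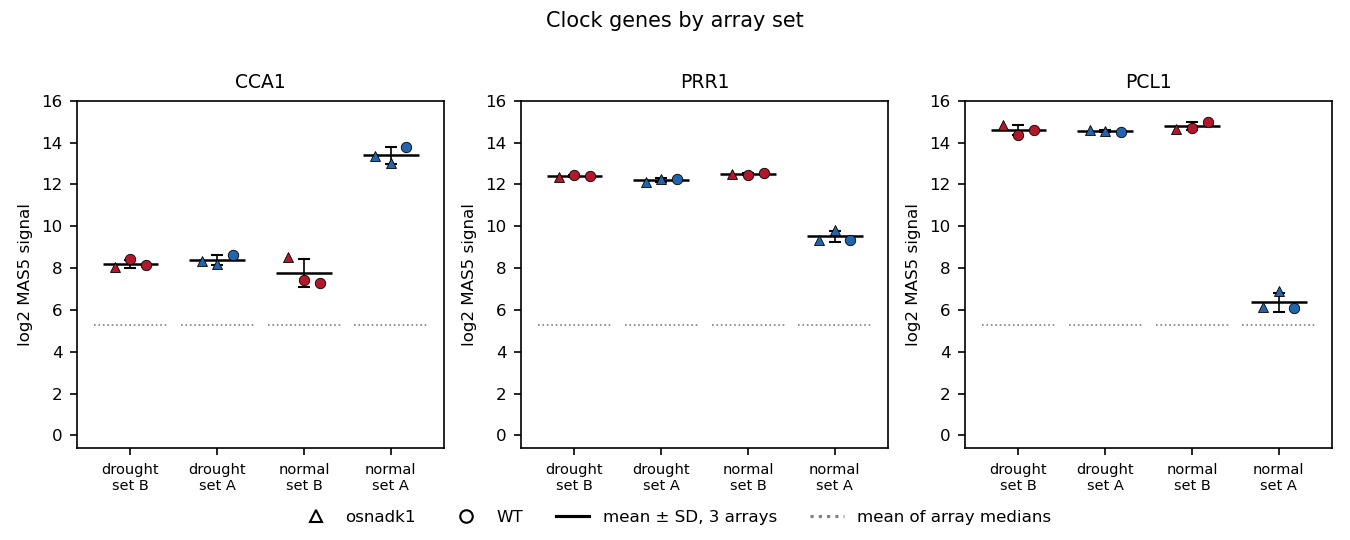
Log2 MAS5 signal of CCA1, PRR1 and PCL1 on each array by treatment and array set (3 arrays each), drawn as for the dehydrins. The 2 drought sets and the normal-growth arrays of set B lie together, and the set A arrays of normal growth lie apart, at 13.02 to 13.79 for CCA1 and 6.08 to 6.90 for PCL1.

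The set difference under drought could also be compared between the genotypes. It differed between osnadk1 and WT at 12 probe sets (0.0374%), 2 with the higher value in osnadk1 (0.00623%) and 10 with the lower (0.0311%), in a fit with 4 residual degrees of freedom, and 3165 had an unadjusted p under 0.05. No gene named above was among them. Dhn1 differed by 1.39 between the osnadk1 arrays and by 1.94 between the WT arrays, PP2C68 by 1.14 and 1.75, and PP2C09 by 1.12 and 1.12. Each osnadk1 value sets 1 array against 2 and each WT value 2 against 1.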

How the data were processed

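RNA of 12 leaf samples was hybridised to Affymetrix rice genome arrays. One table of log2 signals was deposited, which the authors computed by MAS5 (its version is not given in the sources used here). On every array the linear values have a trimmed mean of 500.07 to 500.08 (2% trimmed on each side), so the arrays were taken as scaled to one target and were not normalized further. MAS5 subtracts mismatch probes, so signals below the array median are noisy and differences that involve them are uncertain. Of 57381 probe sets, 123 controls were left out, and 32110 that reached the median of their array on at least 3 of the 12 arrays were tested. In the reference 22436 probe sets have 1 gene, 95 several and 34850 none. Between them, 15401 genes had a tested probe set, and the one with the highest mean stood for the gene in the lists. No pair of arrays held identical values. The number of arrays, 3 in each set, limits the precision.

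All 12 arrays entered 1 linear model per probe set (limma 3.58.1, R 4.3.3), with genotype and set as terms within each treatment and a prior variance that follows the mean. P-values were adjusted by Benjamini-Hochberg over all probe sets tested (6 residual and 4.02 prior degrees of freedom). The threshold was an adjusted p of 0.05. The set by genotype interaction used a mean for each treatment, genotype and set. On data simulated for set B minus set A under drought, 69 of 100 changes of 2 log2 units and 95 of 100 of 5 units were recovered among 32110 probe sets, with 6 false calls. Tables and figures were made in Python 3.11.15 with pandas 2.3.3 and matplotlib 3.10.9.

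The members and gene lists were chosen with earlier results of these data known. The genes named are RAB21 and LEA19, OsNADK1, the 10 highest and 10 lowest probe sets that passed with 1 gene and no overlap, up to 4 genes of each list, and the clock genes. PAL, GLK2, LAC10 (also among the 10 highest), UGD4, PSY3, R40C1, SALT, BURP2, BURP17, further genes of a list given beside those, and the proteasome list were picked after their values were seen. OsNADK1, LOC4345187 and LOC4332654 were matched to their annotation through the study's own probe annotation, and gene names are those of the reference. Alternatives were other models, scalings, filters, a floor, a pseudocount, the lowest-mean probe set of a gene, each genotype alone, a replicate block and each array left out.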

Additional observations from a re-analysis of the deposited data

Results flagged for a closer look

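These results differed between conditions by the test of the difference itself, in limma. The set difference under drought was unlike that under normal growth for 4252 probe sets, and it was unlike between osnadk1 and WT for 12. The values that follow are the set difference (set B minus set A) under drought minus that under normal growth, in log2 units, for genes whose interaction passed an adjusted p of 0.05. This value carries the set A arrays of normal growth, which stood apart from the other 9. Their part in it was not tested.

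The dehydrin (2 of 4), raffinose (2 of 2) and proline genes (1 of 4) with a passed interaction had positive values. Over all probe sets 5.38% passed with a positive value and 7.86% with a negative one. Positive values were not particular to these lists. Small heat shock proteins (3 positive, 0 negative) and photosystem and light-harvesting genes (2 and 0) had only such values. CIPK and CBL genes (9 and 1) and aquaporins (8 and 2) had mostly such values. The ABA pathway was mixed. So were the HSP70, HSP90 and HSP100 chaperones (1 positive, 1 negative), heat shock factors (2 and 1) and antioxidant enzymes (2 and 1). Among the dehydrin, raffinose and proline genes the values were 6.70 for RAB21, 6.28 for RAB16B, 2.23 for Dhn1, 3.1 for LOC4332654, 2.39 for RFS and 1.16 for P5CS1. The brighter probe set of RAB21, which stands for it in the list, gave 3.81 and did not pass (adjusted p = 0.0529 in limma). The dehydrin RAB16C gave -2.92 and did not pass either (adjusted p = 0.169 in limma). RAB21 and RAB16B were tested only through the set B drought arrays. In the ABA pathway the values were 2.75 for PP2C68, 1.33 for PP2C09, 2.09 for BZIP23 and 1.12 for SAPK4. Of the 10 SAPK kinases 1 passed with a positive value and 4 with a negative one, which were SAPK9 (-5.89), SAPK7 (-2.83), SAPK10 (-1.29) and SAPK6 (-1.02). Of the transcription factors and hormone genes, HOX22 had 4.97, HOX24 6.77, HSFC2A 3.12, AOS2 3.26 and IAA24 0.89. For HOX22, HOX24, HSFC2A and AOS2 most of the value came from set A being higher under normal growth (set differences there of -3.85, -3.85, -1.84 and -2.49). The same held, among others, for P5CS1 and BZIP23 (-0.68 and -1.25), and for PSAG, CHLH and CCA1 below (-3.36, -2.57 and -5.54). HSP24.1 had 2.36, though its set difference under drought was -1.04, beside -3.39 under normal growth. PIP2-6 had 2.15, Lsi1 1.72, PSY3 2.60 and BURP17 1.91.

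In the phenylpropanoid and wall genes LAC10 had 2.95 and the PAL probe sets 3.82, 3.39, 3.7, 3.96 and 3.2. In chloroplast genes PSAG had 3.61, CHLH 1.95 and the GLK2 probe sets 2.16, 2.14, 1.96 and 1.37. The clock genes gave 5.26 for CCA1, -2.87 for PRR1, -8.32 for PCL1 and 0.73 for PRR73. Among genes without a role in the reference or named by their locus, LOC4345187 had 5.6, LOC4327501 4.02, LOC4340441 3.56, LOC4346841 -4.24, LOC4324469 -1.39 and LOC4326904 -3.60.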

How the results depend on the processing

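The 518 probe sets that differed between the sets under drought became 848 with only the 6 drought arrays, 1174 without the set A arrays of normal growth, 275 with no mean-variance trend and 840 within osnadk1 alone. Leaving out an array gave 101 (without osnadk1 drought replicate 3) to 422 (without WT drought replicate 2). The set by treatment count was 2649 to 3510 with an array left out, lowest without osnadk1 drought replicate 3. The 12 probe sets that differed by genotype fell to 0 with only the drought arrays, without the set A arrays of normal growth, with quantile normalization, array median centring or no trend, and to between 0 and 4 with an array left out. Centring also moved the median of this difference over all probe sets to 0.22, against -0.03. The response within set B, 424, was 109 with no trend, 781 within osnadk1, 1738 within WT and 37 to 360 with an array left out, and that of set A was 4772 (without WT drought replicate 1) to 7650.

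The same replicate numbers stand in each group, but over 18 pairs of same-numbered arrays the deviations correlated at -0.27 to 0.32, with 6 pairs over 0.1, so the numbers were not taken to pair the arrays. With a replicate block, in which only number 2 holds both sets within a treatment, the counts were 21 under drought, 2242 under normal growth, 0 by genotype and 117 for the response in set B.

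Of 35 calls under drought among the 84 probe sets named, 0 changed sign under any alternative. Between 0 and 5 were lost with other scalings, filters, floors, pseudocounts, only the drought arrays, no genotype term or no set A arrays of normal growth, 24 with no trend, 33 with the block, 17 and 21 within osnadk1 and WT alone, and 9 to 32 with an array left out (32 without osnadk1 drought replicate 3). Signs turned only for differences that had not passed. With quantile normalization PCL1 was -0.09, GI -0.05, PRR95 -0.17 and PRR73 -0.09, and with centring PRR73 was -0.02. With the block CCA1 was 0.05, PRR1 -0.06, PCL1 -0.34, PRR73 -0.06, a GLK2 probe set -0.02 and a PAL probe set -0.35. Within osnadk1 PRR37 was 0.05, and within WT PRR95 was -0.08 and PRR73 -0.01. With an array left out PRR37 ranged from -0.30 to 0.05, PRR95 from -0.08 to 0.13 and PRR73 from -0.02 to 0.03. With the lowest-mean probe set of each gene the dehydrin median was 3.39 and that of SWEET 0.18.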

Other observations

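Several stress genes outside the lists had every set B array above every set A array under drought without passing the test. They were picked after their values were seen, and 11.4% of all probe sets tested have set B on top in this way. SALT, a mannose-binding lectin gene induced by salt and drought in rice, was at 8.51 (osnadk1), 9.26 and 11.36 (WT) in set B against 5.86 and 3.4 (osnadk1) and 7.15 (WT) in set A (3.52, adjusted p = 0.142 in limma). R40C1, an ABA-responsive rice protein gene, was at 10.97, 11.22 and 11.68 against 9.63, 9.51 and 10.45 (1.2, adjusted p = 0.0870 in limma). PSY3, the phytoene synthase gene tied to carotenoids that feed ABA synthesis, was at 10.26, 11.01 and 10.94 against 8.63, 8.59 and 10.02 (1.3, adjusted p = 0.0657 in limma).

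BURP17, of a plant-specific family, was at 12.71, 13.58 and 13.72 in set B against 12.08, 11.85 and 11.27 in set A (1.57, adjusted p = 0.0703 in limma). BURP2, of the same family, differed by 5.35 and 3.43 on its probe sets (adjusted p = 0.147 and 0.0731 in limma), and here the WT array of set A was the lowest, at 2.02 and 2.88. For SALT, R40C1 and PSY3 that array was instead the highest of set A.

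SWEET15, a sugar transporter gene, was at 6.34, 6.75 and 5.26 in set B against 2.60, 2.08 and 1.48 in set A (4.26, adjusted p = 0.112 in limma). All 3 set A arrays were under their array medians, and SWEET15 was tested through the set B drought arrays alone. ACO1, the only ethylene synthesis gene tested, was at 7.62, 6.18 and 6.32 against 5.09, 2.08 and 1.76 (4.26, adjusted p = 0.226 in limma), again with set A under the medians.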
